A study of Sus scrofa with 4 samples.

Results

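Cholesterol synthesis in the longissimus dorsi (LD) muscle was followed through 7 genes, namely the transcription factor SREBF2, the lipoprotein receptor SCARB1 and the 5 enzymes FDPS, SQLE, LSS, CYP51A1 and HSD17B7, out of 22658 features in the expression files. The 7 genes were taken by name. The 6 genes other than SREBF2 stand among the steroid genes that the study picked because of their course over age in these same libraries. The study put SREBF2 forward as an upstream regulator predicted to be activated from 120 d to 240 d. It lists no significant change of the SREBF2 transcript itself for that step. SREBF2 also stands in the gene tables of the study, which list genes by their course or change in these libraries. A change with age in any of the 7 is therefore not independent evidence. The animals were castrated male Laiwu pigs, a Chinese breed known for a high content of intramuscular fat, labelled wild type and given no treatment, with 3 pigs each of 60, 120, 240 and 400 d of age and 1 RNA-seq library per pig. No animal was sampled at more than 1 age, and libraries are numbered here in the order of their columns. Library totals ran from 9713813 to 13325327 counts.

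Cholesterol is built from acetyl-CoA through mevalonate and farnesyl diphosphate to squalene, which is closed into the first sterol and then trimmed to cholesterol. SREBF2 encodes SREBP2, a membrane-bound factor that is released by proteolysis when sterol in the endoplasmic reticulum is low, and that then switches on the genes of this pathway and of lipoprotein uptake. SCAP escorts the factor to the protease MBTPS1, INSIG1 holds it back, and the abundance of the SREBF2 transcript is therefore only 1 layer of its control. The question was whether the enzymes moved as one with SREBF2 over the 4 ages and among pigs of 1 age.

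Ages are those of the sample labels throughout. The mean levels by age that the gene tables of the study list fitted these libraries only under another order, in which the libraries labelled 400, 240, 60 and 120 d stand for 60, 120, 240 and 400 d. Under that order a fall from the libraries labelled 60 or 120 d to those labelled 240 or 400 d becomes a rise with age, as does one from 240 d to 400 d, and a fall from 60 d to 120 d stays a fall. The split of the libraries into those labelled 60 and 120 d and those labelled 240 and 400 d stays the same under both orders. The numbers of mapped reads that the study lists go instead with the labelled ages. The qRT-PCR of the study found more mRNA of the fatty acid gene FASN in the older pigs of its methylation comparison. Under the labels, FASN changed by -0.02 in log2 from 120 d to 240 d (0.06 in its second gene model). Under the other order that step is the reverse of labelled 60 d to 240 d. There FASN changed by -1.79 (-1.25), which the other order turns into a rise. None of these changes passed a false discovery rate of 0.05, and the order was not settled. The split of the libraries was therefore added as a comparison with the values already known.

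The transcripts of all 7 genes were lower in the 6 libraries labelled 240 and 400 d than in the 6 labelled 60 and 120 d. The fall was between 0.82 for FDPS and 1.98 for SQLE on the log2 scale (edgeR's quasi-likelihood test on counts, Benjamini-Hochberg false discovery rate, FDR, of 0.05 over 13314 features). The background was wide, since 18.3% of all features tested were called lower in that comparison and 33.6% in either direction. The median log2 fold change of the 7 genes was -1.16, against -0.02 over all features tested. In 5 of the 7 genes every later library lay below every earlier one in FPKM (fragments per kilobase, scaled for the depth of each library), as in 6.69% of the features tested, and in SQLE and CYP51A1 the 2 sets overlapped.

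**Figure D1:**
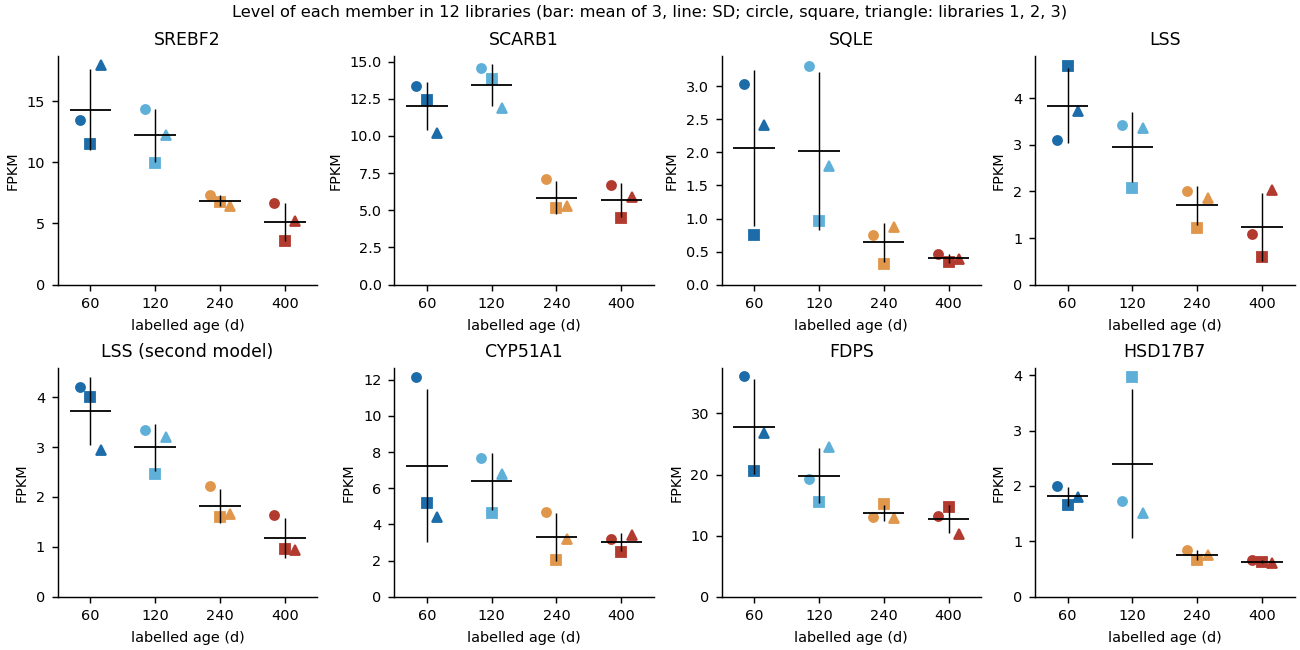
FPKM of the 7 genes (LSS with both gene models) in the 12 libraries against labelled age in days, with bars for the mean of 3 libraries and lines for the SD. SREBF2 stood between 9.97 and 18.0 in the libraries labelled 60 and 120 d and between 3.56 and 7.35 in those labelled 240 and 400 d, and HSD17B7 had 1 high library, at 3.96, at 120 d.

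SREBF2 (ENSSSCG00000026092), the regulator of the set, lies on the unplaced scaffold GL894144.1 at 439 to 35028 in Sscrofa10.2. Its FPKM was 13.4, 11.5 and 18.0 in the 60 d pigs, 14.3, 9.97 and 12.2 in the 120 d pigs, 7.35, 6.75 and 6.45 in the 240 d pigs and 6.65, 3.56 and 5.20 in the 400 d pigs. The 60 d and 120 d libraries overlapped, the 240 d and 400 d libraries overlapped, and the 2 sets were apart. The means were 14.3 ± 3.30, 12.2 ± 2.19, 6.85 ± 0.46 and 5.13 ± 1.55 FPKM (SD, n = 3 each). By edgeR SREBF2 was lower at 400 d than at 60 d by a log2 fold change of -1.45 ± 0.24 (SE, FDR 0.003), and it was also called from 60 d to 240 d (-1.02, FDR 0.024) and from 120 d to 400 d (-1.23, FDR 0.012). From 120 d to 240 d it changed by -0.80 (FDR 0.070).

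SCARB1 (ENSSSCG00000009759, chromosome 14, 30050781 to 30093798), the receptor that takes up cholesteryl ester from HDL, had levels close to those of SREBF2. Its FPKM was 13.4, 12.4 and 10.22 in the 60 d pigs, 14.6, 13.9 and 11.9 in the 120 d pigs, 7.14, 5.14 and 5.29 in the 240 d pigs and 6.73, 4.49 and 5.90 in the 400 d pigs. Its means were close to each other within each set, at 12.0 ± 1.61 and 13.4 ± 1.41 at the earlier ages and 5.85 ± 1.11 and 5.71 ± 1.14 FPKM at the later ages (SD, n = 3 each). SCARB1 was called lower in all 4 comparisons of an earlier with a later age, with an FDR of 0.011 from 60 d to 240 d and a log2 fold change of -1.18 (FDR 0.006) from 120 d to 400 d.

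FDPS (ENSSSCG00000006512, chromosome 4, 103291797 to 103304928), which makes farnesyl diphosphate and stands before the branch to squalene, was the highest of the 7 in FPKM. It read 36.1, 20.7 and 26.8 in the 60 d pigs, 19.3, 15.6 and 24.6 in the 120 d pigs, 13.1, 15.3 and 12.8 in the 240 d pigs and 13.2, 14.7 and 10.3 in the 400 d pigs. The later libraries were all below the earlier ones, but the gap was narrow, from 15.6 in library 2 of 120 d to 15.3 in library 2 of 240 d. FDPS was called lower from 60 d to 240 d (log2 fold change -1.01, FDR 0.023) and to 400 d (-1.10, FDR 0.008). From 120 d the changes were -0.54 (FDR 0.162) and -0.63 (FDR 0.090).

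SQLE (ENSSSCG00000005970, chromosome 4, 15248863 to 15279282), the squalene epoxidase and a controlled step of the late pathway, had the largest fold change of the 7. Its FPKM was 3.03, 0.758 and 2.42 in the 60 d pigs, 3.31, 0.961 and 1.80 in the 120 d pigs, 0.758, 0.309 and 0.865 in the 240 d pigs and 0.465, 0.342 and 0.381 in the 400 d pigs. Library 2 of 60 d and library 2 of 120 d were low for their ages, the first lying within the range of the 240 d libraries, and at 400 d the 3 libraries were close together. The counts were small, between 11 and 114 per library. From 60 d to 400 d SQLE changed by -2.35 ± 0.58 in log2 (SE, FDR 0.015) and from 120 d to 400 d by -2.32 (FDR 0.026), and against 240 d it passed from neither age (FDR 0.073 and 0.094).

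LSS closes squalene epoxide into lanosterol, and 2 gene models carry its name on chromosome 13, ENSSSCG00000028960 (218430206 to 218440700) and ENSSSCG00000021418 (218517420 to 218540493). The first, used in all counts here, had FPKM of 3.09, 4.69 and 3.73 in the 60 d pigs, 3.42, 2.08 and 3.35 in the 120 d pigs, 2.02, 1.22 and 1.86 in the 240 d pigs and 1.08, 0.586 and 2.02 in the 400 d pigs, from 8 to 77 counts. The second had 4.21, 4.01 and 2.94, then 3.34, 2.45 and 3.19, then 2.22, 1.60 and 1.65, and at 400 d 1.65, 0.952 and 0.945 FPKM, from 44 to 223 counts. Both models kept the earlier and the later libraries apart. From 60 d to 400 d the log2 fold change was -1.60 ± 0.41 (SE, FDR 0.017) for the first and -1.64 ± 0.27 (SE, FDR 0.003) for the second. The better counted second model was also called from 60 d to 240 d (FDR 0.030) and from 120 d to 400 d (FDR 0.013), where the first had FDR 0.080 and 0.065. The share of reads that the authors' counting moved between the 2 models is unknown.

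CYP51A1 (ENSSSCG00000015311, chromosome 9, 78792885 to 78814967), the lanosterol demethylase, read 12.1, 5.20 and 4.42 FPKM in the 60 d pigs, 7.70, 4.66 and 6.81 in the 120 d pigs, 4.70, 2.01 and 3.21 in the 240 d pigs and 3.19, 2.48 and 3.39 in the 400 d pigs. Library 1 of 60 d stood far above the other 2 of its age, and library 1 of 240 d overlapped with the earlier libraries. Its change from 60 d to 400 d was -1.31 ± 0.39 in log2 (SE, FDR 0.030). Without library 1 of 60 d that change was -0.72 (FDR 0.118), and the call was also lost without any 1 of the 400 d libraries (FDR 0.060 to 0.108).

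HSD17B7 (ENSSSCG00000006337, chromosome 4, 95571648 to 95594175), a sterol ketoreductase of the demethylation complex, had FPKM of 1.995, 1.66 and 1.79 in the 60 d pigs, 1.74, 3.96 and 1.52 in the 120 d pigs, 0.841, 0.672 and 0.747 in the 240 d pigs and 0.663, 0.627 and 0.609 in the 400 d pigs. Its 240 d and 400 d libraries did not overlap, but the gap was only 0.009 FPKM, and the change between these ages was not called (-0.24, FDR 0.891). The share of all features without overlap between these ages was not counted. It was called lower from 60 d to 400 d (-1.42, FDR 0.020), from 120 d to 240 d (-1.59, FDR 0.038) and from 120 d to 400 d (-1.83, FDR 0.014). Library 2 of 120 d carried 80 counts, against 12 to 35 in the other 11 libraries. Without it the change from 120 d to 240 d was -1.04 (FDR 0.109), and that from the earlier to the later ages was -1.22 (FDR 0.003) in place of -1.51 (FDR 0.002).

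By pair of ages, edgeR called 7 of the 7 genes lower from 60 d to 400 d (12.7% of all features were called lower and 23.5% in either direction), 4 from 120 d to 400 d (8.32%), 3 from 60 d to 240 d (5.83%) and 2 from 120 d to 240 d (2.91%, with 5.12% in either direction). None of the 7 was called higher in these comparisons. From 60 d to 120 d and from 240 d to 400 d edgeR called 0 of the 7, and 0 at an unadjusted p under 0.05, and it called 0 of all features; DESeq2 called 0 of the 7 as well, and 69 and 58 of all features. In those 2 comparisons the log2 fold changes of the 7 genes ran from -0.47 to 0.41 and from -0.70 to -0.01. The counts per pair depended on single pigs, and so did those over all features. From 60 d to 400 d the count was 3 without library 2 and 4 without library 1 of 400 d, from 60 d to 240 d it was 1 without any of the 240 d libraries, and from 120 d to 400 d it was 1 without library 2 of 400 d. From 120 d to 240 d it was 0 without library 3 of 120 d or library 2 or 3 of 240 d, and 1 without library 2 of 120 d, library 1 of 240 d or library 1 or 3 of 400 d. In the first 3 of these fits edgeR called 0, 5 and 1 of all features in either direction, against 682 with all libraries, so the loss of calls there was not particular to the 7 genes. Between the earlier and the later ages the count was 7 without any 1 library.

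Over the 12 libraries the level of each of the 6 other genes followed that of SREBF2, but the libraries formed 2 separate sets, so these correlations describe mostly that split. On log2(FPKM + 0.1) Pearson's r with SREBF2 was 0.87 for SCARB1, SQLE and LSS, 0.79 for FDPS, 0.77 for HSD17B7 and 0.74 for CYP51A1. The median of the 6 was 0.83, against 0.05 over 13313 other features, of which 3.53% had an r at or above that median. Spearman's rho was between 0.74 and 0.85. All points share their library's depth and scaling.

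Among pigs of the same age the relation was much weaker. Deviations from the mean of the age, which the choice of the genes did not use, had an r with SREBF2 of 0.56 for SQLE, 0.44 for LSS, 0.38 for SCARB1, 0.21 for CYP51A1, 0.10 for FDPS and -0.27 for HSD17B7 (12 libraries, 8 residual degrees of freedom). In an exact two-sided permutation test over all rearrangements within ages, 0 of the 6 passed, and 0 were under an unadjusted p of 0.05. The smallest p was 0.064 for SQLE (0.384 after Benjamini-Hochberg adjustment over 6 genes), and the others were between 0.382 and 0.806. On ranks the within-age r was between 0.04 and 0.49, with a smallest exact permutation p of 0.190. Without the 2 libraries in which SREBF2 deviated most, the within-age r was 0.69 for SQLE, 0.31 for FDPS, 0.26 for LSS, 0.12 for CYP51A1, -0.14 for SCARB1 and -0.44 for HSD17B7. The better counted second model of LSS had a within-age r of 0.40, and of -0.03 without those 2 libraries. The values for SQLE, LSS and HSD17B7 rest on few counts (means of 44.4, 34.8 and 26.1 per library). With all libraries the median within-age r of the 6 genes was 0.29, against 0.01 over all other features, of which 19.9% were at or above 0.29. Without library 2 of 400 d, the lowest in SREBF2, the median was 0.03, and without library 3 of 60 d, the highest, it was 0.52.

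**Figure D2:**
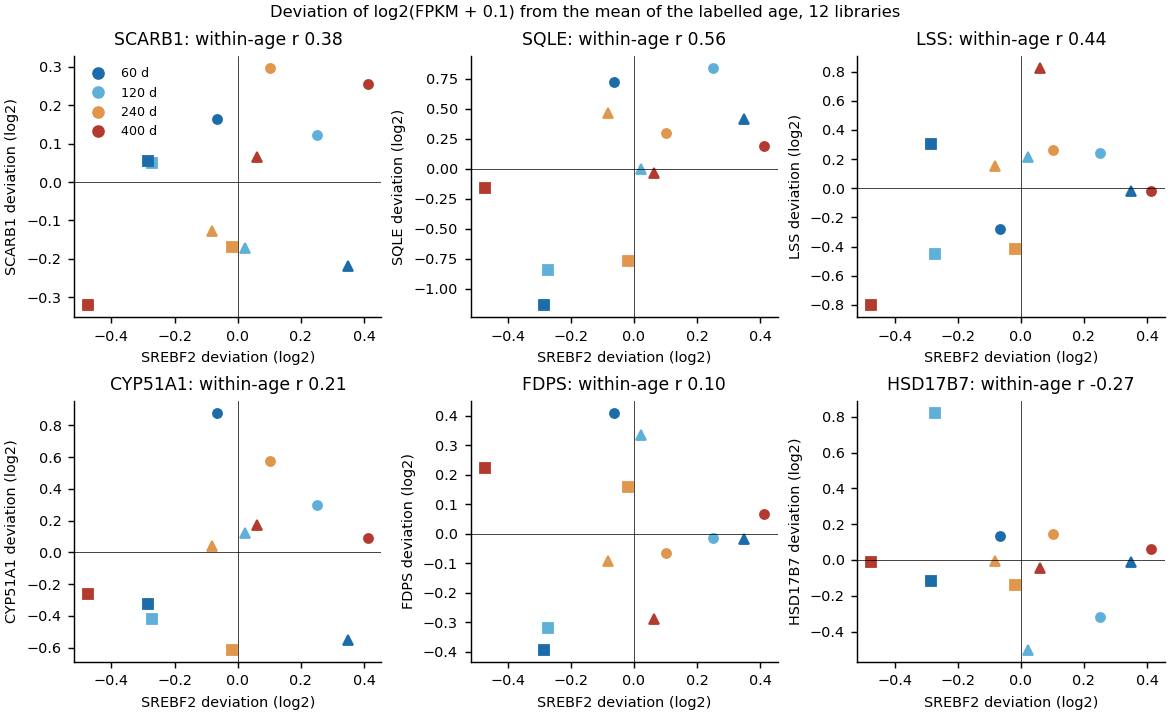
Deviation of log2(FPKM + 0.1) from the mean of the labelled age in the 12 libraries, for each of 6 genes against SREBF2, with colour for age and symbol for library. SQLE had the highest within-age r, at 0.56, and HSD17B7 the lowest, at -0.27.

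Single pigs show how the genes parted. At 60 d, library 3 had the highest SREBF2 of all 12 libraries (18.0 FPKM) but the lowest SCARB1 and CYP51A1 of its age (10.22 and 4.42 FPKM). At 120 d, library 2 had the lowest SREBF2, SQLE, LSS, CYP51A1 and FDPS of its age and the highest HSD17B7. At 400 d, library 2 had the lowest SREBF2, SCARB1, SQLE, LSS and CYP51A1, while its FDPS, at 14.7 FPKM, was the highest of its age. At 240 d, library 1 was highest in SREBF2, SCARB1, LSS, CYP51A1 and HSD17B7 together.

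Pairs among the 7 genes were also closer over all libraries than within ages. Within ages the 21 pairs had a median r of 0.21, from -0.44 for LSS and FDPS to 0.66 for SQLE and CYP51A1, and 14 of the 21 were above 0. Over the 12 libraries the same pairs had a median r of 0.77, from 0.60 to 0.90. SCARB1 with CYP51A1 (0.63) came next to SQLE with CYP51A1 within ages, and 3 of the 4 lowest pairs held HSD17B7. No p is attached to these 21 values.

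The ratio of each gene to SREBF2 asks whether the genes fell by the same factor. The mean log2 ratio changed from the earlier to the later libraries by -0.55 for SQLE (95% interval -1.28 to 0.18), -0.26 for HSD17B7 (-0.96 to 0.32), -0.08 for LSS (-0.63 to 0.49), 0.01 for SCARB1 (-0.41 to 0.46), 0.10 for CYP51A1 (-0.55 to 0.77) and 0.34 for FDPS (-0.14 to 0.86), with intervals obtained by inverting the exact permutation test. In that two-sided exact permutation test of 6 against 6 libraries, 0 of the 6 ratios passed and 0 were under an unadjusted p of 0.05, the smallest p being 0.126 for SQLE (adjusted 0.558). A difference in factor was therefore not detectable with these pigs, and the width of the intervals does not show that the factors were equal. The added 0.1 weighs most on low levels, as of SQLE (0.309 to 0.865 FPKM) and HSD17B7 (0.609 to 0.841 FPKM) in the later libraries. It makes the falls of these 2 genes, and so the changes of their ratios, smaller. On counts edgeR gave log2 fold changes of -1.98 for SQLE, -1.51 for HSD17B7 and -1.12 for SREBF2. Their difference was not tested on counts.

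**Figure D3:**
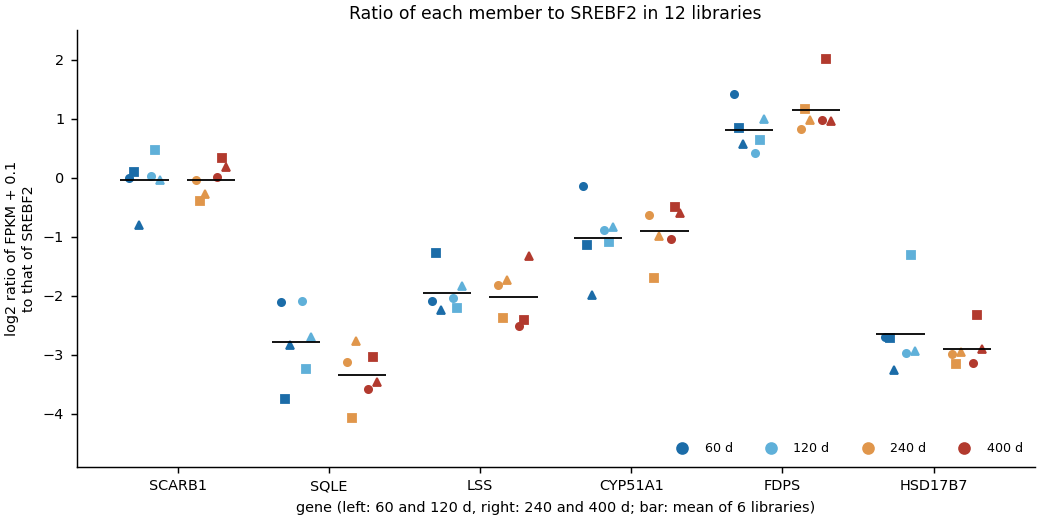
Log2 ratio of FPKM + 0.1 of each gene to that of SREBF2 in the 12 libraries, with the 60 and 120 d libraries on the left and the 240 and 400 d libraries on the right of each gene and bars for the mean of 6. SCARB1 stayed near 0 in both sets (means -0.04 and -0.03), and SQLE lay at -2.79 and -3.34.

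The remaining steps of the pathway did not all follow. Of 12 other synthesis genes tested, edgeR called 4 lower in the later libraries (18.3% of all features were) and 0 higher. In either direction 6 of the 12 were under an unadjusted p of 0.05, as were 6115 of all 13314 features tested. The median log2 fold change of the 12 genes was -0.49. Of these, 8 are not listed under their symbols in the study's tables of profile genes and of fat relevant genes. The other gene tables of the study were not searched for them. The 8 may therefore still include genes that the study listed by their change in these libraries. Among the 8, 1 was called lower (MSMO1) and the median was -0.34. The 4 called lower were ACAT2 (-1.57, FDR 0.001), which condenses acetyl-CoA at the start of the route, PMVK (-0.81, FDR 0.006), a mevalonate kinase step, and the sterol enzymes EBP (-1.16, FDR 0.002) and MSMO1 (-0.81, FDR 0.027). ACAT2 was split without overlap, with FPKM of 5.75, 2.78 and 5.60 in the 60 d pigs, 4.78, 2.64 and 3.57 in the 120 d pigs, 1.62, 1.23 and 1.63 in the 240 d pigs and 1.36, 1.25 and 1.16 in the 400 d pigs.

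HMGCS1 and FDFT1, which are textbook targets of SREBP2, were not called between the earlier and the later ages. HMGCS1, which makes the precursor of mevalonate, lay between 4.25 and 5.76 FPKM in the earlier and between 5.11 and 6.74 in the later libraries, a change of 0.20 ± 0.13 in log2 (SE, FDR 0.236). FDFT1, which makes squalene and so stands directly between FDPS and SQLE, was highest at 400 d. Its FPKM was 49.2, 32.7 and 25.4 in the 60 d pigs, 53.5, 70.7 and 51.2 in the 120 d pigs, 61.4, 54.2 and 36.3 in the 240 d pigs and 80.0, 96.8 and 73.1 in the 400 d pigs, with every 400 d library above every other. FDFT1 was called higher from 60 d to 400 d (1.23 ± 0.27, SE, FDR 0.009), while its change between the 2 sets was 0.52 (FDR 0.0503). The within-age r with SREBF2 was 0.59 for ACAT2, -0.13 for HMGCS1 and -0.40 for FDFT1. NSDHL and TM7SF2, the uncalled sterol enzymes with the most counts, changed by -0.29 (FDR 0.154) and -0.07 (FDR 0.758).

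**Figure D4:**
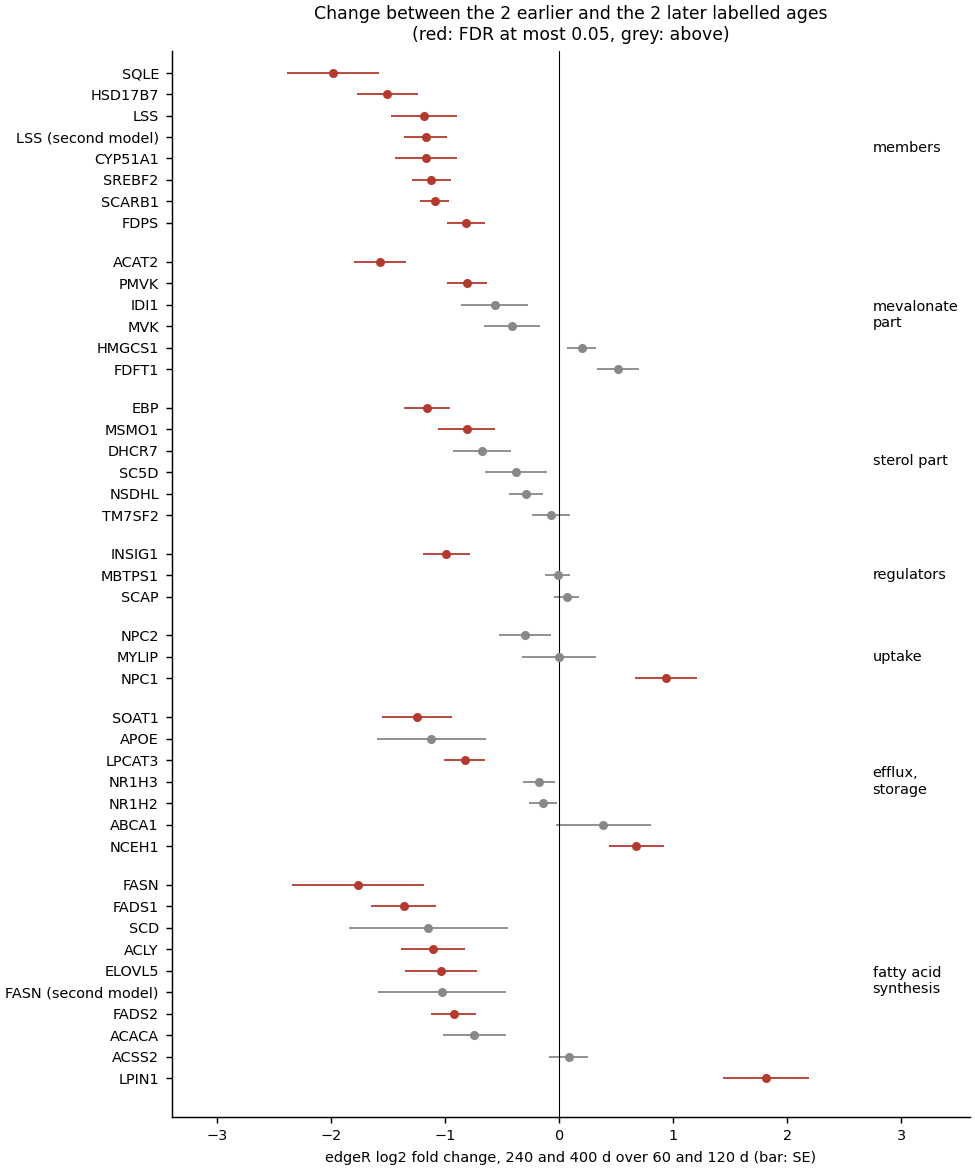
EdgeR log2 fold change of the libraries labelled 240 and 400 d over those labelled 60 and 120 d, with SE bars, for the 7 genes and the other genes of the pathway by group, in red at an FDR of at most 0.05. The 7 genes lie between -1.98 and -0.82, and of the other genes FASN is the lowest at -1.76 and LPIN1 the highest at 1.81.

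Of the regulators of SREBP2, INSIG1, itself a target of the factor, was lower in the later libraries (-0.99, FDR 0.005), whereas SCAP (0.07, FDR 0.666) and the protease MBTPS1 (-0.01, FDR 0.939) stayed uncalled with SEs of 0.11. Of 3 uptake and trafficking genes tested, 1 was called, near the 33.6% of all features called in either direction. This was NPC1, which exports cholesterol from lysosomes and rose (0.94, FDR 0.021). Its partner NPC2 (-0.30, FDR 0.317) and MYLIP, a ubiquitin ligase induced by sterol (-0.003, FDR 0.994), were not called in that comparison, and NPC2 was called lower from 60 d to 400 d (-1.01, FDR 0.043).

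Of 7 genes of efflux, storage and LXR signalling, 3 were called, also near that background. SOAT1, which esterifies cholesterol, and LPCAT3, a phospholipid remodelling enzyme, were lower (-1.25, FDR 0.010, and -0.83, FDR 0.006), and NCEH1, a cholesteryl ester hydrolase, was higher (0.68, FDR 0.049). APOE (-1.12, FDR 0.087) and the LXR beta gene NR1H2 (-0.14, FDR 0.370) were not called. Of 9 fatty acid genes tested, 5 were lower and LPIN1 was higher, against 18.3% of all features lower and 33.6% in either direction. FADS1 (-1.36, FDR 0.005) and FADS2 (-0.92, FDR 0.005) make polyunsaturated fatty acids, and ACLY (-1.10, FDR 0.011) supplies acetyl-CoA to both routes. LPIN1, a phosphatidate phosphatase of triglyceride synthesis, rose by 1.81 ± 0.37 (SE, FDR 0.004), from between 3.16 and 18.7 FPKM to between 18.8 and 46.4. FASN, the fatty acid synthase, was lower by -1.76 (FDR 0.035) in 1 gene model and by -1.03 (FDR 0.171) in the other, and ACACA (-0.74, FDR 0.055), SCD (-1.15, FDR 0.214) and ACSS2 (0.08, FDR 0.729) were not called. ACACA, the acetyl-CoA carboxylase, was called lower from 60 d to 400 d (-1.36, FDR 0.028). Within ages the r with SREBF2 was 0.75 for FADS1, above that of each of the 6 genes, 0.53 for ACACA, 0.52 for ELOVL5 and SCD and 0.38 for FASN, and it ran down to -0.37 for ACSS2. Outside this list, SOAT1 had 0.49 and MSMO1 0.45. These values are a description with no test. Library 2 of 60 d, low in SQLE, was the highest of all 12 in FASN at 93.7 FPKM. Its summed FPKM of adipocyte markers, described below, was also the highest of its age (75.7, against 22.3 and 35.4). The part of fat cells in that FASN level was not tested.

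Markers of other cell types moved between the same sets of libraries, and in bulk muscle fewer cells of a type and less RNA per cell cannot be told apart. Between these sets 18.3% of all features tested were called lower and 33.6% in either direction. All 6 measured leukocyte markers of 8 listed had negative log2 fold changes and 5 were called lower, namely C1QA (-2.04, FDR 0.003), C1QB, ITGB2, CSF1R and PTPRC. Their summed FPKM lay between 55.1 and 107 at 60 d and between 59.5 and 224 at 120 d, and then between 28.5 and 43.1 at 240 d and between 8.98 and 26.8 at 400 d. The value of 224 belonged to library 2 of 120 d, the library with the high HSD17B7. Summed fibroblast markers (3 of 5 measured, with COL1A2 and COL3A1 called lower) ran from 601 to 2001 at 60 d and from 201 to 468 at 400 d, with 926 to 1348 at 120 d and 470 to 685 at 240 d. The 2 endothelial markers measured of 4 listed, KDR and PECAM1, were both called lower, with sums of 44.0 to 94.9, 46.4 to 72.3, 41.8 to 60.4 and 24.7 to 41.1 in the order of ages. Both satellite cell markers measured of 3 listed, MYF5 and CDH15, were called lower, with sums of 17.5 to 21.5, 17.0 to 18.0, 7.94 to 17.5 and 9.32 to 10.8. Both red cell markers were negative and uncalled (HBB -1.15, FDR 0.077), with sums of 218 to 1167, 31.2 to 217, 134 to 274 and 57.3 to 100.4. The part of these markers in the levels of the 7 genes was not tested.

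**Figure D5:**
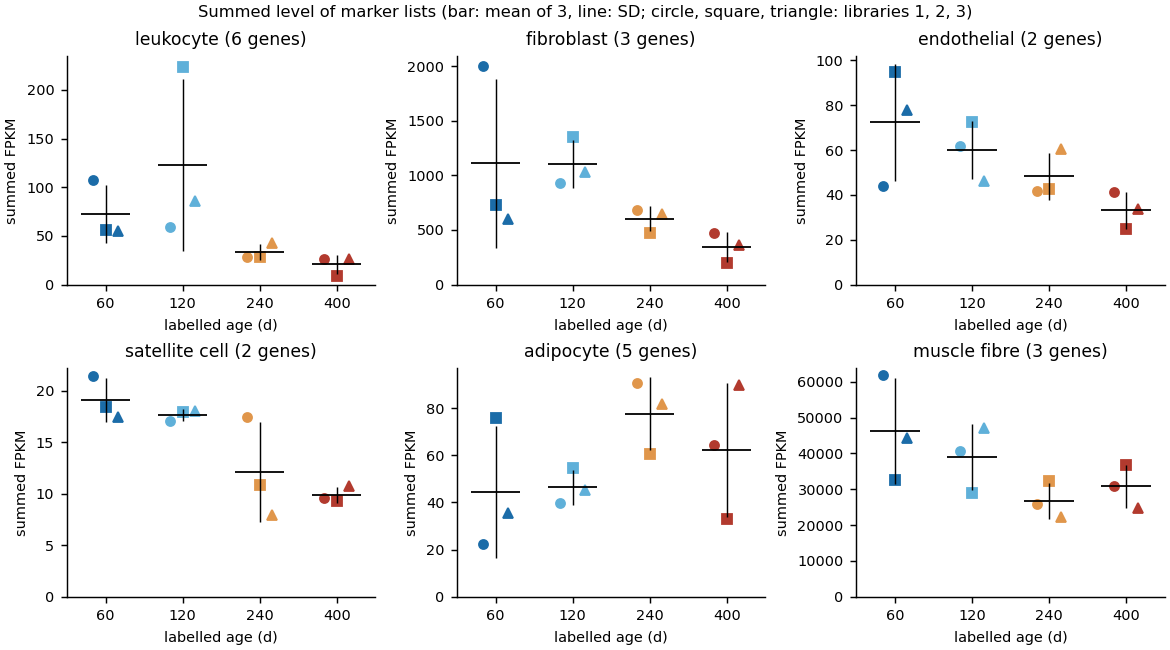
Summed FPKM of 6 marker lists in the 12 libraries against labelled age in days, with bars for the mean of 3 libraries and lines for the SD. The leukocyte sum of library 2 at 120 d, 224, stands above the other 11 libraries, and the adipocyte sums at 120 d, up to 54.5, lie below those at 240 d, from 60.5, with the sums at 60 and 400 d spread across both.

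Adipocyte markers did not follow this course. Of 5 measured of 7 listed, only PLIN4 was called, higher in the later libraries (0.86, FDR 0.004), and the summed FPKM in the order of ages was 22.3 to 75.7, 39.8 to 54.5, 60.5 to 90.6 and 33.1 to 89.8. LEP was the 1 of these markers listed at 0 in some library. Muscle fibre markers were far above all others, as the tissue label says, with a sum of DES, MYLPF and TNNC2 between 22348 and 61799 FPKM. MYLPF was called lower (-0.83, FDR 0.014) and DES higher (0.61, FDR 0.035). ACTA1, the skeletal muscle actin, was listed at 0 in 7 of the 12 libraries, including all 3 at 60 d, and was left out of that sum.

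None of the 5 features most like SREBF2 over the 12 libraries was a gene of the sterol lists. Among 9153 features that averaged 50 counts or more over the libraries, the 5 with the highest Pearson r outside the 7 genes were PLOD1 (0.97), a collagen lysyl hydroxylase, NES (0.97), the intermediate filament protein nestin, DCHS1 (0.94), a protocadherin, ENSSSCG00000014859 (0.94), which has no symbol in the table used, and SPINDOC (0.94). Of the listed pathway genes, FADS1 and ACAT2 followed closely, at 0.93 each. NES fell from 6.97 ± 2.60 FPKM at 60 d to 1.61 ± 0.40 at 400 d and PLOD1 from 18.7 ± 4.26 to 7.71 ± 1.52 (SD, n = 3 each). In the same order the second model of LSS ranked 49, SCARB1 147, FDPS 555 and CYP51A1 865, and the other 3 genes were below the count limit. These ranks carry no test, and they share the split of the libraries.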

How the data were processed

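The authors sequenced LD muscle RNA of 12 Laiwu pigs as paired-end reads, mapped them to Sscrofa10.2 with TopHat2 and estimated FPKM with Cufflinks. The authors deposited, for each age, a file with 3 libraries holding the raw count and the FPKM of each gene. The processing notes of the submitters name a mouse build and Bowtie 0.12.2 instead, while the gene identifiers are those of pig. Versions of TopHat2 and Cufflinks are not given in the sources used here, and the authors' normalized column was not used.

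Counts were tested with edgeR 4.0.16 in R 4.3.3 (TMM, all 12 libraries in 1 quasi-likelihood fit, features that averaged 10 counts or more at any age), for 6 pairs of ages and for 60 and 120 d against 240 and 400 d, at an FDR of 0.05. The SE of a fold change is its absolute value over the square root of F. Correlations used log2(FPKM + 0.1), and scipy 1.17.1 gave the exact tests. Precision is limited by 3 pigs per age and, for HSD17B7, SQLE and LSS, by few counts. Scripts were tested on simulated data. Alternatives were DESeq2 1.42.0, other size factors, filters, thresholds, pseudocounts and gene models, separate fits, each library left out, and the other order of ages.

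The 7 genes and all lists were chosen with earlier results of these data known. From each pathway list the text names the called genes, up to 4 by adjusted p, and up to 2 uncalled ones with the most counts, in the comparison of earlier with later ages or of 60 d with 400 d, with FASN and ACACA named under the latter. MVD, GGPS1, LBR, SREBF1, INSIG2, MBTPS2, STARD4, LRP1 and ELOVL6 were not analysed here, and ABCG1 fell below the filter. Some genes of the lists are not reported here, and the counts over those lists leave them out.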

Additional observations from a re-analysis of the deposited data

How the results depend on the processing

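The calls between the earlier (60 and 120 d) and the later (240 and 400 d) libraries, a comparison added after seeing the data, were 7 of 7 genes under other size factors, without the count filter, by DESeq2, with the other LSS model and without any 1 library. At an FDR of 0.01 with a log2 fold change of 1 or more they were 6, and with a mean of at least 50 counts also 6, since HSD17B7 was then not tested. Over all features, in either direction, the calls were 4476 of 13314 in the main fit, 4462 under other size factors and 4933 by DESeq2. They were 4175 of 18747 without the count filter, 968 at the stricter threshold and 3830 of 9885 with a mean of at least 50 counts. Under the order of ages in the gene tables of the study the same 7 genes were higher with age. Their counts by pair, also turned to rises, were 7 (60 d to 240 d), 4 (60 d to 400 d), 3 (120 d to 240 d) and 2 (120 d to 400 d). For the other pathway genes, 34 tested, that order gave 15 between the sets, as did the labels. By pair it gave 11, 6, 5 and 4 in the same order of pairs, in place of 5, 11, 4 and 6. Of all features, 33.6% were called in either direction between the sets. Under the other order 23.5%, 13.9%, 11.3% and 5.12% of all features were called in those pairs.

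For the 7 genes, DESeq2 called 6 from 60 d to 240 d and 4 from 120 d to 240 d, and separate fits called 0 from 60 d to 240 d. Over all features these fits called 2356, 1767 and 238 in either direction, in place of 1509, 682 and 1509. The FDR of 0.01 with a log2 fold change of 1 left 0 (60 d to 240 d), 3 (60 d to 400 d), 0 (120 d to 240 d) and 1 (120 d to 400 d), where it left 112, 833, 0 and 155 of all features, and a mean of at least 50 counts left 1 from 120 d to 240 d. Leaving out 1 library gave 1 to 4, 3 to 7, 0 to 3 and 1 to 5 in those pairs. For the other pathway genes, separate fits called 0 (60 d to 240 d) and 7 (60 d to 400 d), and DESeq2 called 8 from 60 d to 240 d and 7 from 120 d to 240 d. From 60 d to 400 d separate fits called 1825 of all features, in place of 3124. The stricter threshold left 5 of the other pathway genes between the sets, where it left 968 of all features, and 0, 5, 0 and 0 by pair. Leaving out 1 library gave 12 to 15 of them between the sets and 0 to 6, 7 to 13, 0 to 7 and 0 to 10 by pair. Over all features it gave 3350 to 4425 between the sets and 255 to 1552, 1335 to 3227, 0 to 1376 and 203 to 2412 by pair. Without any 1 of the 400 d libraries, 1 of the other pathway genes was called from 120 d to 240 d, as a rise. The cause of these differences was not tested.

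The median within-age r with SREBF2 was 0.25 with a pseudocount of 1, 0.30 on TMM log2 CPM, 0.22 on ranks, and from 0.03 to 0.52 without 1 library; over the 12 libraries it was from 0.80 to 0.87. The count of ratios to SREBF2 that passed was 0 in every setting run. No paired analysis was possible because no pig was sampled at more than 1 age.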
